A study of Homo sapiens with 24 samples.

Results

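The ETS family of transcription factors was followed through 9 genes, ETV4, ETV5, ETS1, ETS2, ELF3, EHF, ELF1, ELK1 and ELK3, taken by symbol from the 19702 genes of the count table. All 9 were present and all 9 passed the filter on low counts in both cell lines. Messenger RNA had been sequenced from PC9 and H1975, established human lung adenocarcinoma cell lines that depend on mutant forms of the growth factor receptor EGFR. Each line was studied after 24 h in 4 groups of 3 libraries. PC9 received 2 nM almonertinib, a covalent inhibitor of mutant EGFR, or 0.3 nM paclitaxel, a taxane that stabilises microtubules, or a combination of both drugs, or was a control. H1975 received 1 nM almonertinib, 1 nM paclitaxel or the combination, or was a control. What the controls received is not stated. The labels do not give the doses within the combinations separately. Since PC9 and H1975 were given unlike single doses, an effect of line and an effect of dose cannot be told apart. Nothing in the labels states whether replicate libraries are from separate cultures. The p-values then measure only the spread between libraries, which may be technical.

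ETS proteins share a winged helix-turn-helix domain that binds DNA around a GGAA core. Many of them lie at the end of the Ras to ERK cascade, which EGFR switches on: ERK phosphorylates ELK1, ELK3, ETS1 and ETS2 and raises their activity, and transcription of ETV4 and ETV5 is itself induced by ERK signalling, partly by release from the repressor CIC. ETV4 and ETV5 form the PEA3 group and act in branching of the developing lung. ETS1 and ETS2 are the founding members of the family. ELF3 and EHF are factors of epithelial cells that act in their differentiation. ELF1 is a broadly expressed relative. ELK1 and ELK3 are ternary complex factors that sit with the serum response factor SRF on immediate early genes, and ELK3 can also act as a repressor.

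The genes lie on 8 chromosomes (GRCh38, GENCODE v29). ETV4 is at 17:43527844-43579620 and ETV5 at 3:186046308-186110318, both on the minus strand. ETS1 is at 11:128458761-128587558 on the minus strand and ETS2 at 21:38805307-38824955 on the plus strand. ELF3 is at 1:202007945-202017188, EHF at 11:34621093-34661057 and ELK3 at 12:96194382-96269835, all on the plus strand. ELF1 is at 13:40932028-41061440 and ELK1 at X:47635521-47650604, both on the minus strand. The strand that was counted is not given in the sources used here. Exons of ELF3 share 664 bases with the antisense gene ELF3-AS1, those of ELF1 share 167 bases with WBP4 and those of ETV4 share 68 bases with DHX8 on the opposite strand. Those of ELK3 share 209 bases with the antisense gene AC008149.1. Reads of such pairs cannot be told apart without strand. ETV5 shares 164 exonic bases with DGKG on the same strand, and ELF3 shares 664 with AL691482.3.

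Promoter sequence was at hand from RefSeq (GRCh38.p14) for 6 of the 9 genes, in 11 windows of the 250 bases before an annotated start. The windows shown are of a pair of genes that moved in opposite directions under both single drugs in PC9 (EHF and ETS2) and of the pair of ternary complex factors (ELK1 and ELK3). Each is written 5′ to 3′ on the strand of its gene, holds no annotated exon, and has the ETS core in capitals (GGAA, or TTCC for a core on the other strand).
EHF, chr11:34624007-34624256, plus strand: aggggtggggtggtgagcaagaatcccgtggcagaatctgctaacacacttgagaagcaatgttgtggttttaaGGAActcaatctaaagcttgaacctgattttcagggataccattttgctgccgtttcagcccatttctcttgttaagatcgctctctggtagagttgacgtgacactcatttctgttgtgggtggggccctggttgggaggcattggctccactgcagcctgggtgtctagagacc
ETS2, chr21:38804933-38805182, plus strand: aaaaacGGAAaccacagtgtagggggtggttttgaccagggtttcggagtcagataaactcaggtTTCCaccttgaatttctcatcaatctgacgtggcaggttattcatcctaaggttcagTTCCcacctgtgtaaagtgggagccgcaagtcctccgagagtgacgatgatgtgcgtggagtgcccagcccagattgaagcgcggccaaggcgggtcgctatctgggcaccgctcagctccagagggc
ELK1, chrX:47650605-47650854, minus strand: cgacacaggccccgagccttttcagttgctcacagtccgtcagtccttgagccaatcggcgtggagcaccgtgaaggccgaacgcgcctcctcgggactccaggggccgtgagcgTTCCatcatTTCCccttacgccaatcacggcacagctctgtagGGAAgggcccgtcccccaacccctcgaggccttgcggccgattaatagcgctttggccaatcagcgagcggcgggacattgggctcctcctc
ELK3, chr12:96194125-96194374, plus strand: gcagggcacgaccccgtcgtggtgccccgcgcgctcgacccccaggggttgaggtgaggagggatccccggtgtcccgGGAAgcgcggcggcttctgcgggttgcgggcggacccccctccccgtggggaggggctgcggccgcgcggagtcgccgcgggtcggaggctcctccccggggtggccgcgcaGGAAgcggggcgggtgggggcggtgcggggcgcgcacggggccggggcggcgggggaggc
The core occurred 1 time in the EHF window, 3 times in the ETS2 window, 3 times in the ELK1 window and 2 times in the ELK3 window. Counts in these windows are ordinary: 92.7% of 35116 promoter windows of this length hold at least 1 core on either strand. The median window holds 3. A second window of EHF, of ETS2 and of ELK3, which overlaps annotated exons and is not shown, held 0, 6 and 6 cores. The longer ETS consensus CCGGAAGT, found in 3.42% of all windows, and the AP-1 motif TGANTCA, found in 6.57%, occurred in none of the 11 windows (both strands searched, and the first includes the GGAA core).

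Sequencing depth ran from 14232299 to 24245314 counts per library, with 13780 to 14502 genes detected. Levels are given as CPM, the counts of a gene scaled to a common library size, with library sizes adjusted by TMM. The lines carried the epithelial markers of their label (7 genes; 15604 to 29781 CPM summed in PC9 libraries and 8969 to 15994 CPM in H1975 libraries), although the lung lineage factor NKX2-1 stood at only 0.307 CPM in PC9 controls, against 36.4 CPM in H1975 controls. The fibroblast list of 5 genes summed to at most 23.1 CPM, and its genes COL1A2 and LUM had no count in any library. Its sum was 22.6 to 23.1 CPM in PC9 combination libraries, against 12.8 to 18.2 CPM in PC9 controls. Leukocyte and endothelial lists summed to at most 12.6 and 11.4 CPM. The epithelial sum was lower in PC9 paclitaxel libraries (15604 to 17823 CPM) than in PC9 controls (21986 to 25357 CPM), and its part in the results was not tested. Some libraries stood apart from the others of their group. In each library the deviation from the mean of its line was correlated across genes with the GC content of the transcript. This Spearman rho was 0.793, -0.622 and -0.474 in the H1975 almonertinib libraries, -0.477, 0.0439 and 0.160 in the paclitaxel libraries and 0.302, 0.407 and -0.633 in the controls. Almonertinib library 1, paclitaxel library 1 and control library 3 therefore went against their group. Comparisons of H1975 treatments with controls are also given without these 3 libraries, for the 9 genes where a call changes and for the gene lists. In that smaller set every treated library had a lower rho than the controls left in (0.302 and 0.407). The almonertinib libraries were the lowest (-0.622 and -0.474), so GC content moved with the treatments there. In PC9, almonertinib library 3 had a rho of 0.490, against -0.284 and -0.282 in the other 2 libraries of the group. The 3 PC9 paclitaxel libraries ran from -0.590 to -0.415 and the 3 controls from 0.163 to 0.377, so in that comparison GC content moved with the treatment. Without almonertinib library 3 it also moved with almonertinib, since the other 2 libraries lay below all controls.

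In control cells the order of the 9 genes differed between the lines. Levels are given here per kb of exon so that genes can be compared. In PC9 ETV4 led with 40.6 ± 1.9 CPM per kb (SD, n = 3). ETS2, ELF3 and ELK1 followed at 16.7, 16.2 and 16.2 CPM per kb, with overlapping libraries. Then came ETV5 at 9.42, EHF at 6.28, ELF1 at 5.65 (its libraries overlapped those of EHF), ELK3 at 4.35 and ETS1 at 2.17 CPM per kb. In H1975 ELK1 led with 54.4 ± 12 CPM per kb (SD, n = 3), ahead of ETV4 at 33.9 CPM per kb. ELF3 and ETS2 had overlapping libraries at 14.1 and 12.4, ETS1 stood at 8.13, ETV5 and ELK3 overlapped at 5.90 and 5.25, ELF1 stood at 2.99, and EHF came last at 0.447 CPM per kb. EHF and ETS1 thus ranked far apart in the lines. Among 19 further ETS genes, ERF and ELF4 were among the most abundant, with 65.1 and 43.2 CPM per kb in PC9 controls and 18.6 and 34.8 CPM per kb in H1975 controls. ERG, FLI1, FEV and SPIC had no count in any control library.

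**Figure D1:**
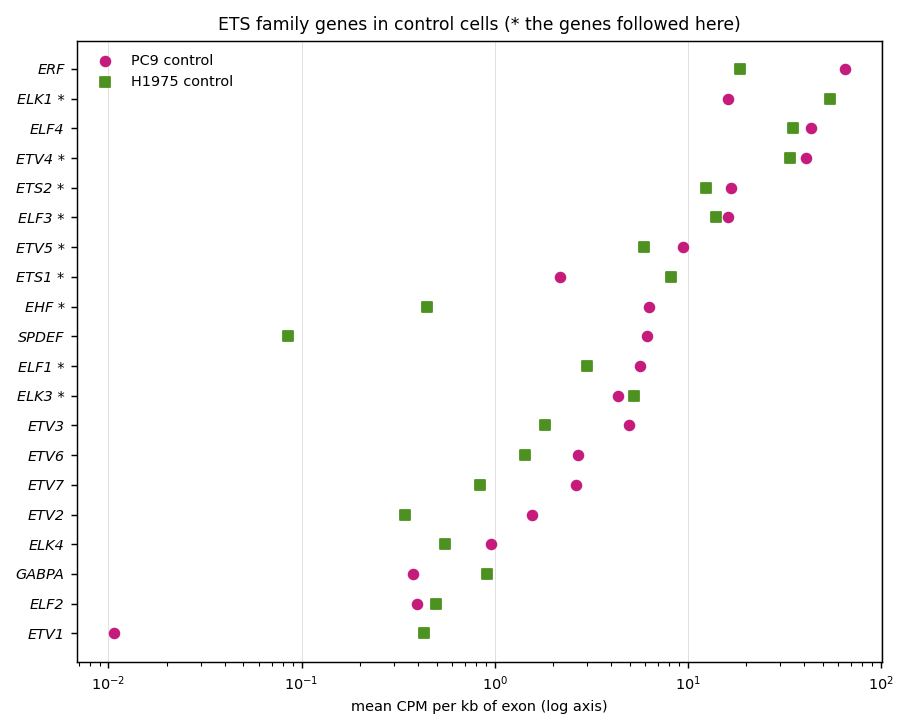
Mean level of ETS family genes in control cells, in CPM per kb of exon on a log axis, for PC9 (circles) and H1975 (squares), 3 libraries each; genes under 0.05 CPM per kb in both lines are left out. SPDEF, ETV1 and EHF have the widest gaps between the lines drawn, and ETS1 and ELK1 are the starred genes that lie well to the right in H1975.

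A test of the control cells called 6 of the 9 genes between the lines, 4 higher and 2 lower in PC9, against 68.7% of all genes tested (34.9% higher and 33.8% lower). EHF averaged 27.5 ± 4.0 CPM in PC9 and 1.96 ± 0.89 CPM in H1975, a log2 difference of 3.80 ± 0.26 (SE; edgeR adjusted p = 1.59e-12). Raw EHF counts in H1975 were 98 to 141 over the 3 libraries of a group. ELF1, ETV5 and ETS2 were also higher in PC9, by 0.92, 0.67 and 0.43 on the log2 scale. ETS1 averaged 15.5 ± 2.8 CPM in PC9 and 58.1 ± 6.8 CPM in H1975, a log2 difference of -1.90 ± 0.15 (adjusted p = 6.07e-11). ELK1 averaged 54.9 ± 2.6 CPM in PC9 and 185 ± 41 CPM in H1975, a log2 difference of -1.75 ± 0.20. ETV4, ELF3 and ELK3 were not called, with differences of 0.26, 0.21 and -0.27 and overlapping libraries. With a length and GC trend removed per library, the ETS2 difference was 0.07 and no longer called.

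**Figure D2:**
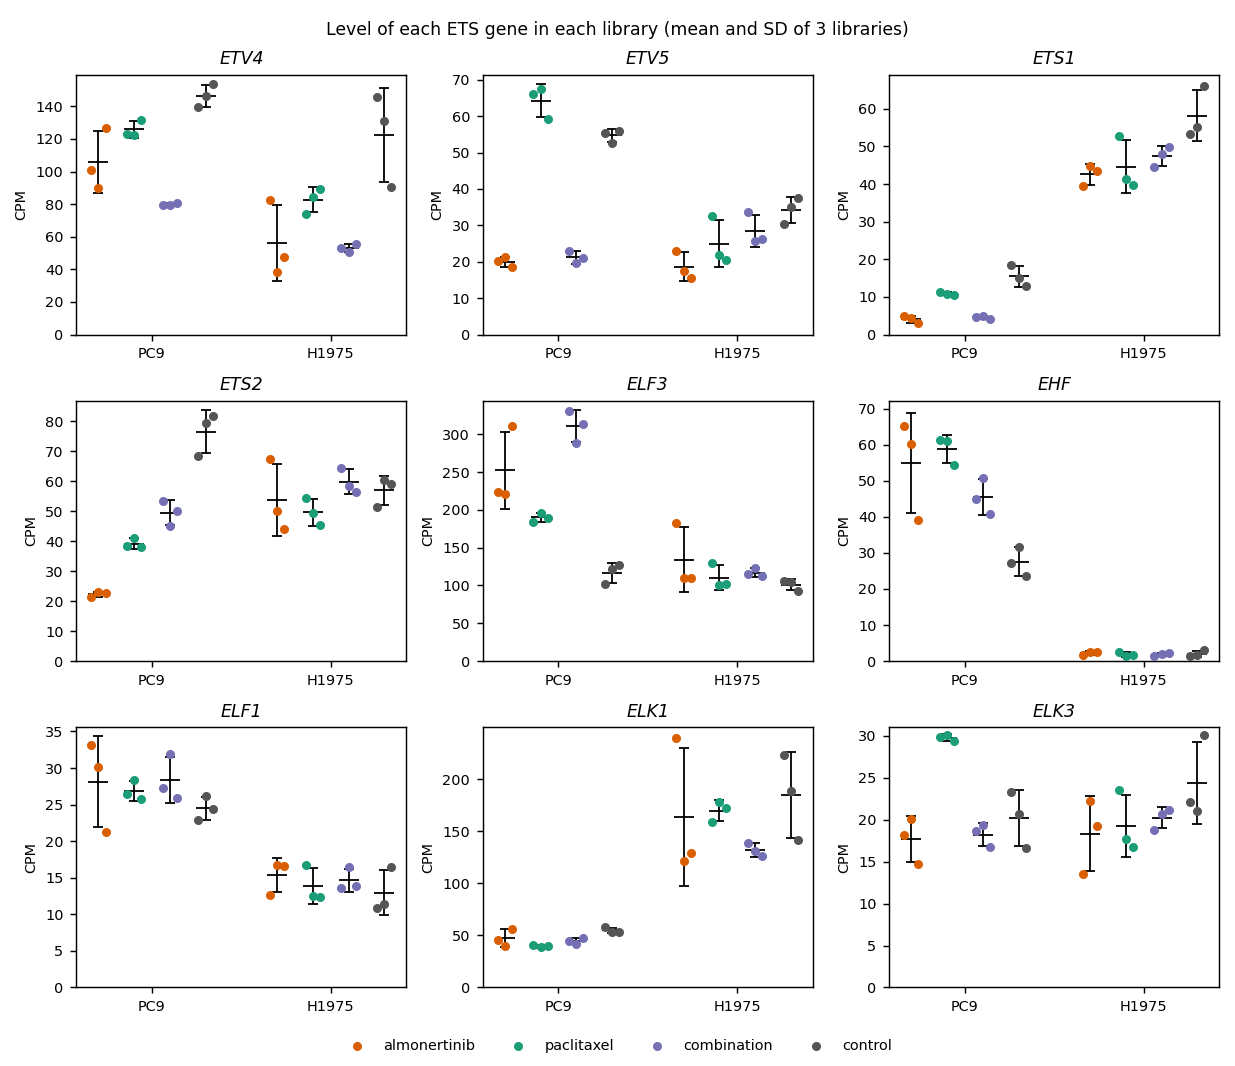
CPM of each ETS gene in each library (points, library 1 to 3 from left to right in each group) with the mean and SD of 3 libraries, for PC9 on the left and H1975 on the right of each panel. In PC9 the almonertinib libraries of ETV5, ETS1 and ETS2 lie far below the controls and those of ELF3 and EHF above them, while the H1975 groups lie closer together.

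Under almonertinib in PC9, RNA of ETV4, ETV5, ETS1 and ETS2 was lower than in control cells and RNA of ELF3 and EHF was higher, so 6 of 9 genes were called, 2 higher and 4 lower. Of all genes tested, 56.7% were called in that comparison, 28.9% higher and 27.8% lower, so the share of ETS genes was near the background. The median log2 change of the 9 genes was -0.21, against 0.03 for all genes. Levels are shares of a library's counts, and less RNA per cell and fewer cells that hold the RNA cannot be told apart in bulk samples. Under paclitaxel 3 genes were higher and 3 lower, with a median of 0.12 against -0.01 for all genes, of which 55.0% were called (27.0% higher and 28.0% lower). Under the combination 2 were higher and 5 lower, with a median of -0.31 against 0.00 for all genes, of which 50.7% were called (24.7% higher and 26.0% lower). With the length and GC trend removed, 8 of the 9 were called under almonertinib (60.6% of all genes), and without almonertinib library 3 also 8 (62.7%). In the latter fit GC content moved with the treatment. Trend removal gave 7 calls under paclitaxel (52.5%) and 7 under the combination (57.7%).

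In H1975 few genes were called in the whole table, and few of the 9. ETV4 and ETV5, 2 of 9 genes, were lower under almonertinib, against 1.95% of all genes called and 0.599% called lower. ETV4, 1 of 9, was lower under the combination, against 2.46% of all genes called and 0.697% called lower (304 genes, or 202 with the library number as a block, since libraries with the same number deviated together in these groups). Paclitaxel called none of the 9 in edgeR or in DESeq2, against 0.640% of all genes, and 3 of them (ETV4, ETV5 and ETS1) had an unadjusted p under 0.05. Medians of the 9 log2 changes were -0.20, -0.21 and -0.28 for almonertinib, paclitaxel and the combination, against 0.02, -0.03 and -0.04 over all genes. Without the 3 libraries that stood apart, 6 genes were called under almonertinib (45.4% of all genes), 3 under paclitaxel (8.83%) and 3 under the combination (34.9%). GC content moved with the treatments in that set, and treatment and GC trend cannot be told apart there. In the full set, with the length and GC trend removed, the counts were 4 (7.75%), 1 (3.39%) and 2 (13.2%).

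**Figure D3:**
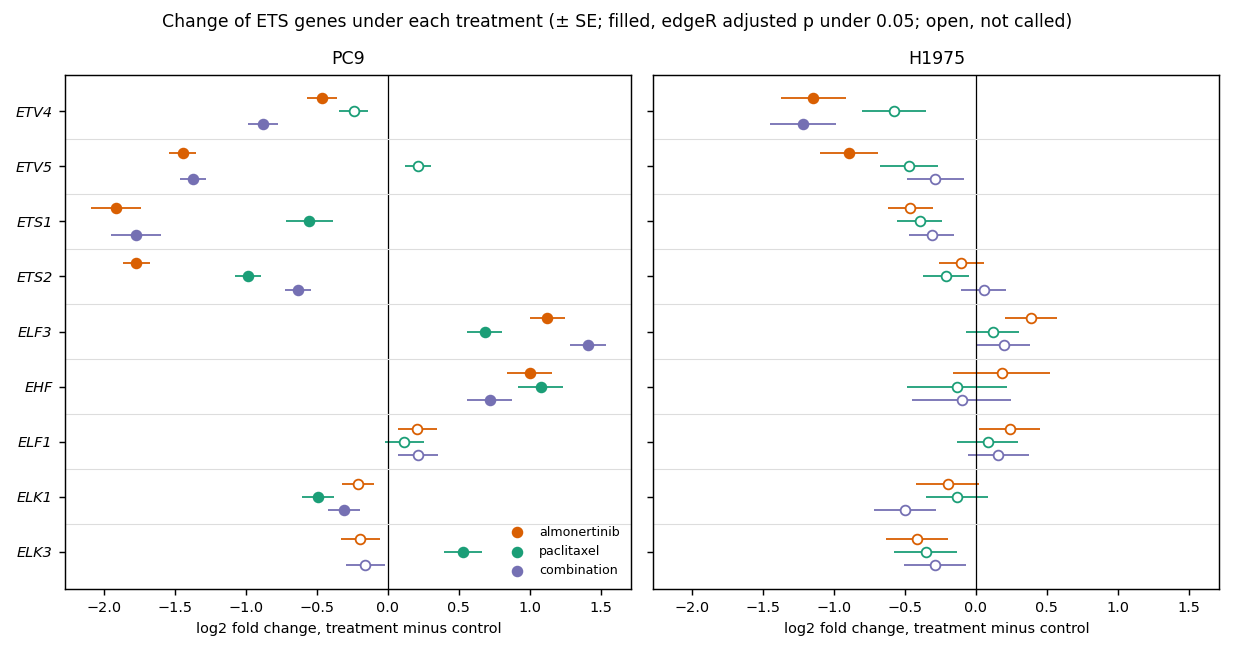
Log2 fold change of each ETS gene under each treatment against the control of its line, with its SE, from edgeR; filled points are called at an adjusted p under 0.05 and open points are not. In PC9 19 of the 27 points are filled, and in H1975 only ETV4 under almonertinib and the combination and ETV5 under almonertinib are.

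Of the 9 genes, the PEA3 genes ETV4 and ETV5 were those called against controls in both lines. ETV5 in PC9 stood at 20.2, 21.2 and 18.5 CPM with almonertinib, at 66.1, 67.6 and 59.2 CPM with paclitaxel, at 23.0, 19.5 and 21.1 CPM with the combination, and at 55.4, 52.7 and 56.0 CPM in controls. The almonertinib and combination libraries all lay below the controls, and the paclitaxel libraries all lay above them. The log2 change was -1.45 ± 0.094 under almonertinib (SE; adjusted p = 3.14e-09), -1.37 ± 0.094 under the combination (adjusted p = 1.22e-08) and 0.21 ± 0.090 under paclitaxel (adjusted p = 0.0549, not called). The paclitaxel value was 0.28 and called with the length and GC trend removed, and 0.27 and called with the stricter filter.

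ETV4 in PC9 stood at 101, 89.6 and 127 CPM with almonertinib, at 123, 123 and 132 CPM with paclitaxel, at 79.8, 79.6 and 80.5 CPM with the combination, and at 140, 146 and 154 CPM in controls. Every treated library was below every control library, and the combination libraries were the lowest. The change was -0.46 ± 0.10 under almonertinib (adjusted p = 0.00125), -0.88 ± 0.11 under the combination (adjusted p = 4.60e-06) and -0.24 ± 0.10 under paclitaxel (adjusted p = 0.0597, not called). Almonertinib library 3 was the highest of its group. In a fit of all 24 libraries the almonertinib change of -0.47 was not called (adjusted p = 0.0512).

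In H1975 ETV4 stood at 82.6, 38.5 and 47.8 CPM with almonertinib, at 74.2, 84.5 and 89.6 CPM with paclitaxel, at 52.9, 50.8 and 55.6 CPM with the combination, and at 146, 131 and 90.3 CPM in controls. All treated libraries were below all controls, and the highest almonertinib and the lowest control value came from libraries that stood apart. ETV4 changed by -1.14 ± 0.23 under almonertinib (adjusted p = 0.0141) and by -1.22 ± 0.23 under the combination (adjusted p = 0.0120), and its value under paclitaxel was -0.57 ± 0.23 (adjusted p = 0.461). Without the 3 libraries the values were -1.66, -1.39 and -0.68, all called. The calls were lost when single libraries were left out: leaving out almonertinib library 2 or 3 or control library 1 or 2 gave adjusted p-values of 0.0642, 0.0772, 0.0921 and 0.0708 for almonertinib, and leaving out control library 1 or 2 or combination library 1 or 2 gave 0.0879, 0.0547, 0.0559 and 0.0754 for the combination.

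ETV5 in H1975 stood at 23.0, 17.6 and 15.5 CPM with almonertinib, at 32.5, 21.9 and 20.5 CPM with paclitaxel, at 33.6, 25.6 and 26.1 CPM with the combination, and at 30.3, 35.1 and 37.4 CPM in controls. Only the almonertinib group lay wholly below the controls. Its change was -0.89 ± 0.20 (adjusted p = 0.0354), and the values were -0.47 under paclitaxel and -0.28 under the combination, not called. Without the 3 libraries that stood apart the paclitaxel value was -0.63 and called (adjusted p = 0.0118). With the library number as a block and the length and GC trend removed, the combination value was -0.49 and called (adjusted p = 0.0282). The call under almonertinib was lost without almonertinib library 2 or 3 or without any 1 of the 3 controls (adjusted p from 0.0681 to 0.148), and stood at -0.96 without the 3 libraries.

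ETS1 and ETS2 were lower under every treatment in PC9. ETS1 stood at 4.91, 4.35 and 3.11 CPM with almonertinib, at 11.2, 10.8 and 10.4 CPM with paclitaxel, at 4.80, 4.82 and 4.11 CPM with the combination, and at 18.6, 15.0 and 13.0 CPM in controls. No treated library reached the lowest control. The log2 change was -1.91 ± 0.18 under almonertinib (adjusted p = 1.74e-07), -0.55 ± 0.16 under paclitaxel (adjusted p = 0.00915) and -1.77 ± 0.17 under the combination (adjusted p = 5.78e-07). The paclitaxel change was -0.39 and not called without control library 1 (adjusted p = 0.0651), and was -0.94 with the length and GC trend removed.

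ETS2 stood at 21.3, 23.0 and 22.6 CPM with almonertinib, at 38.4, 41.2 and 38.1 CPM with paclitaxel, at 53.3, 45.2 and 50.1 CPM with the combination, and at 68.5, 79.6 and 81.8 CPM in controls. The 4 groups did not overlap at all, and the combination group was the treated group nearest to the controls. The change was -1.77 ± 0.095 under almonertinib (adjusted p = 2.98e-10), -0.99 ± 0.092 under paclitaxel (adjusted p = 6.73e-07) and -0.63 ± 0.091 under the combination (adjusted p = 2.87e-05). No alternative setting removed any of these 3 calls.

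In H1975 ETS1 stood at 39.4, 44.7 and 43.5 CPM with almonertinib, at 52.8, 41.2 and 39.9 CPM with paclitaxel, at 44.6, 48.0 and 49.8 CPM with the combination, and at 53.2, 55.2 and 65.9 CPM in controls. All treated libraries were below all controls, by less than in PC9, and the values of -0.46 ± 0.16, -0.39 ± 0.16 and -0.31 ± 0.16 were not called (adjusted p = 0.212, 0.475 and 0.304). Without the 3 libraries that stood apart ETS1 was called at -0.28 under almonertinib and at -0.43 under paclitaxel. ETS2 in H1975 had overlapping groups that averaged 53.8 ± 12, 49.7 ± 4.5 and 59.9 ± 4.2 CPM under almonertinib, paclitaxel and the combination, and 57.0 ± 4.9 CPM in controls (SD, n = 3 each), with none called.

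The epithelial factors ELF3 and EHF were higher under every treatment in PC9. ELF3 stood at 224, 221 and 311 CPM with almonertinib, at 184, 196 and 190 CPM with paclitaxel, at 330, 288 and 314 CPM with the combination, and at 101, 121 and 127 CPM in controls. All treated libraries exceeded all controls. ELF3 changed by 1.12 ± 0.12 under almonertinib (adjusted p = 1.32e-06), by 0.68 ± 0.12 under paclitaxel (adjusted p = 0.000271) and by 1.41 ± 0.12 under the combination (adjusted p = 1.96e-07), and no alternative setting removed a call. ELF3 thus became the leading gene of the 9 per kb of exon, with 43.2 ± 3.0 CPM per kb under the combination, against 16.2 ± 1.9 CPM per kb in controls (SD, n = 3 each).

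EHF stood at 65.3, 60.3 and 39.1 CPM with almonertinib, at 61.3, 61.0 and 54.5 CPM with paclitaxel, at 45.0, 50.7 and 40.7 CPM with the combination, and at 27.3, 31.6 and 23.6 CPM in controls. Every treated library was above every control, and almonertinib library 3, whose GC trend was unlike that of its group, was the lowest treated value. EHF changed by 1.00 ± 0.16 under almonertinib (adjusted p = 5.52e-05), by 1.08 ± 0.16 under paclitaxel (adjusted p = 5.28e-05) and by 0.72 ± 0.16 under the combination (adjusted p = 0.00132). With the length and GC trend removed these values were 0.78, 0.74 and 0.66, all called.

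In H1975 neither epithelial factor was called. ELF3 stood at 183, 109 and 110 CPM with almonertinib, at 129, 100 and 102 CPM with paclitaxel, at 115, 123 and 113 CPM with the combination, and at 106, 105 and 92.5 CPM in controls. The almonertinib and combination libraries were all above the controls, and the largest value was that of the almonertinib library that stood apart. The log2 value under almonertinib was 0.39 ± 0.19 (adjusted p = 0.488), or 0.08 without the 3 libraries. EHF ranged from 1.32 to 2.98 CPM over all 12 libraries, with overlapping groups, and was called only under almonertinib without the 3 libraries (0.81).

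ELF1 in PC9 stood at 33.1, 30.1 and 21.2 CPM with almonertinib, at 26.5, 28.4 and 25.8 CPM with paclitaxel, at 27.3, 32.0 and 25.9 CPM with the combination, and at 23.0, 26.1 and 24.4 CPM in controls, with overlap in every comparison. The values of 0.21 ± 0.14, 0.12 ± 0.14 and 0.21 ± 0.14 were not called. Its sign depended on the processing. The ELF1 transcript has the lowest GC content of the 9 (0.381), and with the length and GC trend removed it was called lower, at -0.30 under almonertinib and -0.51 under paclitaxel. Without almonertinib library 3, which left GC content moving with the treatment, it was called higher, at 0.39. In H1975 ELF1 averaged 15.3 ± 2.3, 13.9 ± 2.5 and 14.6 ± 1.6 CPM under almonertinib, paclitaxel and the combination, and 13.0 ± 3.1 CPM in controls (SD, n = 3 each), with no call. Without the 3 libraries that stood apart it was called at 0.60 under almonertinib and 0.38 under the combination.

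The ternary complex factors went different ways under paclitaxel in PC9. ELK1 stood at 45.6, 39.6 and 56.6 CPM with almonertinib, at 41.0, 38.4 and 39.6 CPM with paclitaxel, at 44.9, 41.4 and 47.6 CPM with the combination, and at 57.8, 53.3 and 53.5 CPM in controls. The paclitaxel and combination libraries were all below the controls, and almonertinib library 3 was inside their range. ELK1 changed by -0.49 ± 0.11 under paclitaxel (adjusted p = 0.00183) and by -0.31 ± 0.11 under the combination (adjusted p = 0.0326), and its value under almonertinib was -0.21 ± 0.11 (adjusted p = 0.122). In the fit of all 24 libraries neither change was called (-0.47, adjusted p = 0.0569, and -0.30, adjusted p = 0.236). The combination call was also lost in DESeq2 (-0.29), with RLE size factors (-0.29) and without control library 1 or 2 or combination library 1 or 2 (adjusted p from 0.0526 to 0.132). Without almonertinib library 3 the almonertinib value was -0.35 and called, in a fit where GC content moved with the treatment.

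ELK3 stood at 18.2, 20.1 and 14.7 CPM with almonertinib, at 29.9, 30.1 and 29.3 CPM with paclitaxel, at 18.6, 19.4 and 16.7 CPM with the combination, and at 23.3, 20.7 and 16.6 CPM in controls. The paclitaxel group alone lay outside the control range. Its change was 0.53 ± 0.13 (adjusted p = 0.00331), and the values were -0.19 under almonertinib and -0.16 under the combination, not called. With the length and GC trend removed the paclitaxel value was 0.21 and not called, and the almonertinib value was -0.34 and called. In H1975 ELK1 ran from 121 to 240 CPM and ELK3 from 13.5 to 30.0 CPM over the 12 libraries, and the almonertinib library that stood apart held the highest ELK1 and the lowest ELK3 value. No H1975 value of either gene was called (from -0.50 to -0.13), while ELK1 was called at -0.70 under almonertinib and -0.65 under the combination without the 3 libraries.

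The combination was set against each drug alone in PC9. Against almonertinib, 2 of the 9 genes were called, with 20.1% of all genes called. ETS2 was higher in the combination by 1.14 ± 0.094 (adjusted p = 6.68e-07) and ETV4 was lower (-0.42 ± 0.10, adjusted p = 0.0110). The ETV4 value was -0.27 without almonertinib library 3, and in a fit of all 24 libraries it was -0.40 and not called. ETV5, ETS1, ELF1, ELK1 and ELK3 had values between -0.10 and 0.14, with overlapping libraries. ELF3 and EHF were not called at 0.29 and -0.28. Without almonertinib library 3 they were called at 0.47 and -0.48 (32.4% of all genes called). In that fit all almonertinib libraries had a lower GC rho than all combination libraries. With the length and GC trend removed 3 of the 9 genes were called (26.4%). Against paclitaxel, 6 genes were called, with 44.1% of all genes called. ETV5 (-1.58), ETS1 (-1.22), ELK3 (-0.69) and ETV4 (-0.64) were lower in the combination, and ELF3 (0.73) and ETS2 (0.35) were higher. In the fit of all 24 libraries the ETS2 value was 0.34 and not called (adjusted p = 0.0610).

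Whether the drug effects added up was tested as an interaction, the log2 change under the combination minus the sum of the single-drug changes. It is 0 where effects add and the combination held both drugs at their single doses. The labels do not give those doses, so a departure from adding and a change of dose cannot be told apart. In PC9 4 of 9 genes were called, against 45.5% of all genes. ETS2 departed most. Its single-drug changes sum to -2.76 and the combination gave -0.63, an interaction of 2.12 ± 0.13 (adjusted p = 4.19e-09). The EHF changes sum to 2.07 and the combination gave 0.72, an interaction of -1.36 ± 0.22 (adjusted p = 0.000154). ETS1 had an interaction of 0.69 ± 0.25 (adjusted p = 0.0304) and ELK3 of -0.50 ± 0.19 (adjusted p = 0.0420). The ELK3 call was lost in the fit of all 24 libraries and under 9 of 12 fits without 1 library and the ETS1 call under 6 of 12 (57.9% of all genes were called without almonertinib library 3), and with the length and GC trend removed ELK3 was at -0.08. ETV4 (-0.17), ETV5 (-0.14), ELF1 (-0.11), ELF3 (-0.40) and ELK1 (0.40) were not called. With the trend removed 7 genes were called (44.8% of all genes), among them ELF1 at 0.80, ELF3 at -0.68, ETV5 at -0.38 and ETV4 at -0.35, and the values of ETS2 and EHF were 1.87 and -0.86.

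In H1975 no gene of the 9 was called for the combination against almonertinib or against paclitaxel, and no gene of the table was (0.00% of 12345 genes by edgeR in both). Of the 9 genes 1 had an unadjusted p under 0.05 in each. Over all genes 1230 and 1704 had such a p, and DESeq2 called 41 and 481. The H1975 interaction also called none of the 9 in edgeR, against 0.672% of all genes, with 2 at an unadjusted p under 0.05. ETV5 had the largest value, 1.08 ± 0.29 (adjusted p = 0.132), and DESeq2 called it at 1.13. Without the 3 libraries that stood apart ETV5 was called at 1.39, ETV4 at 0.96, ETS2 at 0.57 and ETS1 at 0.51 (32.9% of all genes called), and ETV5 was also called with the length and GC trend removed (0.92). The fit without the 3 libraries called 3 of the 9 genes for the combination against almonertinib (34.3% of all genes) and 4 against paclitaxel (33.0%).

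**Figure D4:**
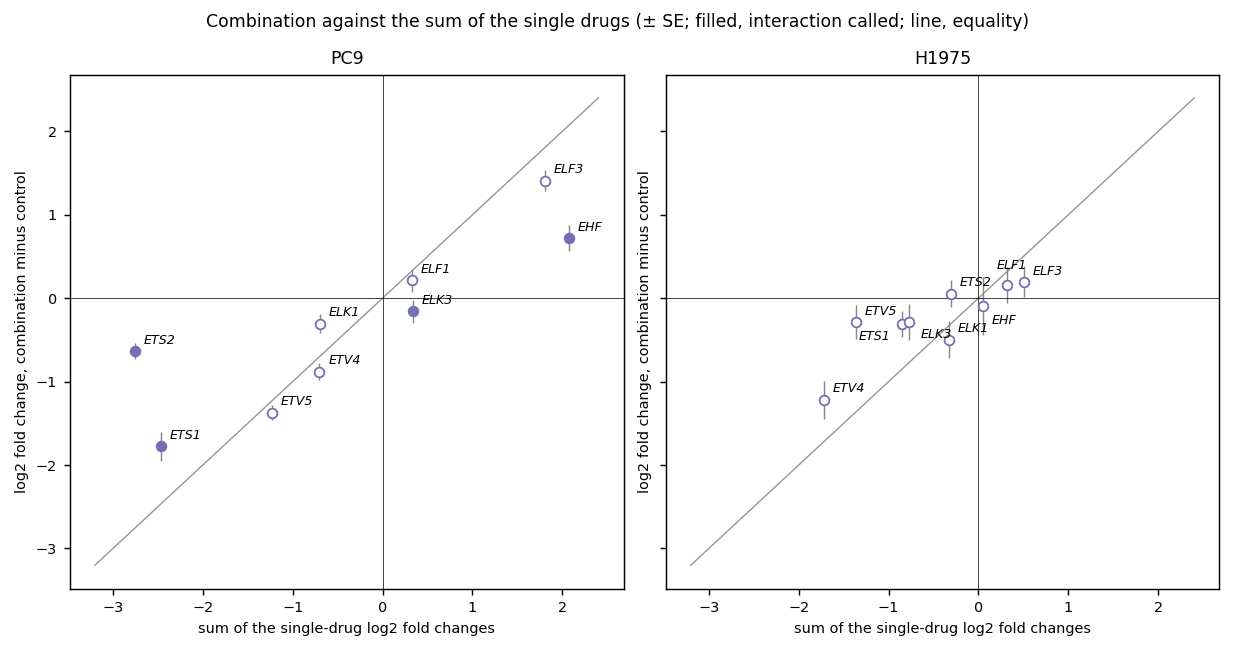
Log2 change under the combination (vertical axis, with its SE) against the sum of single-drug log2 changes (horizontal axis), 9 genes, PC9 and H1975. On the diagonal the effects add, if the combination held the single doses, which the labels do not give. Filled points have a called interaction. In PC9 ETS2 at -2.76 and -0.63 lies far above the diagonal and EHF at 2.07 and 0.72 below it, and no H1975 point is filled.

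PC9 and H1975 responses were also compared directly, as the PC9 change minus the H1975 change in a fit of all 24 libraries. Under almonertinib 3 of 9 genes were called, against 16.6% of all genes: ETS2 (-1.69 ± 0.19), ETS1 (-1.47 ± 0.22) and ELF3 (0.71 ± 0.24). For ETV4 and ETV5, called under almonertinib in each line, the differences of 0.65 (95% interval 0.09 to 1.22, adjusted p = 0.105) and -0.57 (-1.04 to -0.10, adjusted p = 0.0883) were not called. Under paclitaxel 4 genes were called, against 17.1% of all genes, and under the combination 4, against 18.0%. ELF1 and ELK1 were called in none of these 3 comparisons, with differences from -0.35 to 0.19 and 95% intervals that lie within -0.90 to 0.74. With the length and GC trend removed 5 genes were called for almonertinib (28.6% of all genes), 8 for paclitaxel (26.0%) and 4 for the combination (30.1%). Without the 3 H1975 libraries that stood apart the counts were 5 (29.3%), 6 (28.1%) and 5 (31.5%).

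Genes around the ETS factors in the EGFR to ERK pathway, from lists chosen with earlier results of these data known, are read here against the share of all genes called. In PC9 28.9% of all genes were higher and 27.8% lower under almonertinib, 27.0% and 28.0% under paclitaxel, and 24.7% and 26.0% under the combination. In H1975 1.35% were higher and 0.599% lower under almonertinib, 0.446% and 0.194% under paclitaxel, and 1.77% and 0.697% under the combination. Without the 3 H1975 libraries that stood apart these shares were 23.9% and 21.6%, 3.58% and 5.25%, and 15.8% and 19.2%. Of 14 genes induced by ERK, 10 were lower and none higher under almonertinib in PC9 (median -0.71), 10 lower and 1 higher under paclitaxel (median -0.52), and 10 lower and none higher under the combination (median -0.78), against medians over all genes of 0.03, -0.01 and 0.00. PHLDA1 averaged 24.2 ± 0.32 CPM under almonertinib and 17.6 ± 1.6 CPM under the combination, against 164 ± 1.6 CPM in controls (SD, n = 3 each; log2 changes of -2.75 and -3.23). FOSL1, a subunit of the AP-1 complex, changed by -2.45 and -3.22. Of 13 such genes tested in H1975, 6 were lower under almonertinib (median -0.70), 1 under paclitaxel and 4 under the combination (median -0.53), and none was higher. With those 3 left out, 9, 7 and 9 were lower under almonertinib, paclitaxel and the combination, and none was higher. DUSP4, a phosphatase of ERK, fell in all 3 groups there (-0.93, -0.63 and -1.03, or -1.08, -0.69 and -1.10 without the 3 libraries).

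Of 14 genes of the cascade itself in PC9, 4 rose and 4 fell under almonertinib, 4 rose and 5 fell under paclitaxel, and 5 rose and 3 fell under the combination, with medians of 0.14, -0.08 and 0.08, against 0.03, -0.01 and 0.00 for all genes. These shares are near the background of 28.9% higher and 27.8% lower, 27.0% and 28.0%, and 24.7% and 26.0%. MAP2K1, the kinase that phosphorylates ERK, fell in all 3 (-1.01, -0.38 and -0.65), and SOS1, an exchange factor of Ras, rose in all 3 (1.31, 1.16 and 1.29). None of the 14 was called in H1975. In the fit without the 3 libraries, 3 rose and 5 fell under almonertinib, 1 fell under paclitaxel, and 3 rose and 4 fell under the combination. Of the 13 partners and regulators of ETS factors, 12 were tested. SRF, the partner of ELK1 and ELK3, averaged 62.2 ± 0.44 CPM under paclitaxel and 83.1 ± 3.4 CPM under the combination in PC9, against 127 ± 6.1 CPM in controls (SD, n = 3 each; -1.05 and -0.61). In the list 2 rose and 5 fell under almonertinib, 3 rose and 4 fell under paclitaxel, and 3 rose and 2 fell under the combination (medians of -0.18, -0.13 and 0.09). In H1975 2 rose, under the combination, and without the 3 libraries 4 rose and 3 fell under almonertinib, none was called under paclitaxel, and 5 rose and 1 fell under the combination. Counts of both lists without the 3 libraries have to be read against the shares of all genes in that fit. These were 23.9% higher and 21.6% lower under almonertinib, 3.58% and 5.25% under paclitaxel, and 15.8% and 19.2% under the combination.

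Genes known as targets of these factors were read in the same way. Of 12 immediate early genes served by SRF and the ternary complex factors, 8 fell and 1 rose under almonertinib in PC9, 7 fell and 2 rose under paclitaxel, and 9 fell and 2 rose under the combination (medians of -0.40, -0.45 and -0.44, against 0.03, -0.01 and 0.00 for all genes, of which 27.8%, 28.0% and 26.0% were called lower). EGR3 fell in all 3 (-2.43, -1.68 and -2.67) and BTG2, an antiproliferative gene, rose in all 3 (1.42, 0.93 and 1.87). In H1975 EGR1 fell under almonertinib (-0.97) and the combination (-1.38), the only call among 10 tested genes. EGR1 without the 3 libraries was at -0.87, -1.13 and -1.17 under almonertinib, paclitaxel and the combination, all called, and the list had 2 higher and 3 lower, 2 lower, and 2 higher and 1 lower. Of the matrix and protease genes bound by ETS factors, 8 of 12 were tested in PC9 and 5 fell and 2 rose under almonertinib (median -1.53), 3 fell and 1 rose under paclitaxel (median -0.52), and 4 fell and 1 rose under the combination (median -0.84). In H1975 1 of 9, PLAU, fell under almonertinib (list median -0.16), and none was called under paclitaxel or the combination (medians of -0.35 and 0.24). Counts without the 3 libraries were 1 higher and 3 lower, 2 lower, and 3 higher and 1 lower in almonertinib, paclitaxel and the combination. In PC9 the matrix protein gene TNC averaged 22.9 ± 2.8 CPM under almonertinib, against 106 ± 8.8 CPM in controls (-2.21), the urokinase gene PLAU changed by -1.33, and the collagenase gene MMP13 averaged 13.9 ± 5.0 CPM, against 0.585 ± 0.21 CPM in controls (4.60). Of 15 genes of the epithelial programme in PC9, 6 rose and 2 fell under almonertinib, 4 rose and 4 fell under paclitaxel, and 7 rose and none fell under the combination (medians of 0.22, 0.12 and 0.25). The almonertinib and paclitaxel counts have to be read against 28.9% of all genes higher and 27.8% lower, and 27.0% and 28.0%, and the combination count against 24.7% and 26.0%. In PC9 the tight junction gene CLDN3 rose under almonertinib and the combination (1.17 and 1.00). None of the 14 tested in H1975 was called. In the smaller set without the 3 libraries 15 were tested. Of these, 4 rose and 5 fell under almonertinib, 3 fell under paclitaxel, and 5 rose and 4 fell under the combination. CLDN3 was among those called lower there under the combination (-0.46). All counts of that set have to be read against the shares of all genes in it. These were 23.9% higher and 21.6% lower under almonertinib, 3.58% and 5.25% under paclitaxel, and 15.8% and 19.2% under the combination. GC content moved with the treatments in that set.

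Of the 19 other ETS genes, 11 were tested in PC9 and 10 in H1975. In PC9 6 rose and 2 fell under almonertinib, 5 rose and 3 fell under paclitaxel, and 5 rose and none fell under the combination, with medians of 0.48, 0.00 and 0.59, against 0.03, -0.01 and 0.00 for all genes. Of all genes 28.9% were higher and 27.8% lower, 27.0% and 28.0%, and 24.7% and 26.0% in the same order. ETV7, a relative of the repressor ETV6, was called in all 6 comparisons with controls. In PC9 it averaged 38.0 ± 2.5, 17.1 ± 2.5 and 20.5 ± 0.94 CPM under almonertinib, paclitaxel and the combination, against 6.26 ± 1.8 CPM in controls (SD, n = 3 each; 2.63, 1.45 and 1.73). In H1975 it averaged 7.95 ± 2.3, 5.22 ± 0.74 and 5.40 ± 0.80 CPM, against 1.99 ± 0.53 CPM in controls (1.97, 1.39 and 1.43), the only call among the 10 genes there. ETV7 without the 3 libraries was at 1.55, 1.18 and 1.23, all called. In that fit 6 of the 10 rose and 1 fell under almonertinib, 1 rose under paclitaxel, and 3 rose and 2 fell under the combination. Of all genes 23.9% were higher and 21.6% lower there under almonertinib, 3.58% and 5.25% under paclitaxel, and 15.8% and 19.2% under the combination. GC content moved with the treatments in that set. SPDEF, a factor of secretory epithelium, averaged 30.7 ± 1.6 CPM under almonertinib and 23.1 ± 0.93 CPM under the combination in PC9, against 11.7 ± 3.5 CPM in controls (1.41 and 0.98).

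Some pairs of members varied together or in opposite directions across libraries, and other pairs hardly did. After the mean of each line was subtracted, ETV5 and ETS1 had a Pearson r of 0.882 over the 24 libraries, ETS1 and ELF3 of -0.857, ETS1 and ETS2 of 0.644, ETV4 and ETV5 of 0.554, and ELF3 and EHF of 0.374. EHF and ELF1 had an r of 0.717 and ELF1 and ELK1 of -0.731. Pairs with an r near 0 included ETS2 and ELK3 (0.042), ETV5 and ELK1 (0.065), and ELF3 and ELK1 (-0.058). All these values are descriptions: the libraries share treatments, depth and the GC trend. Among 9417 genes, the gene most like each member was HMGA1 for ETV4 (r = 0.944), SH3TC2 for ETV5 (0.956), FERMT1 for ETS1 (0.973), WARS1 for ETS2 (0.975), CLIP2 for ELF3 (0.977), MAP3K1 for EHF (0.955), ENTPD4 for ELF1 (0.889), TBL3 for ELK1 (0.954) and IARS1 for ELK3 (0.935).

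**Figure D5:**
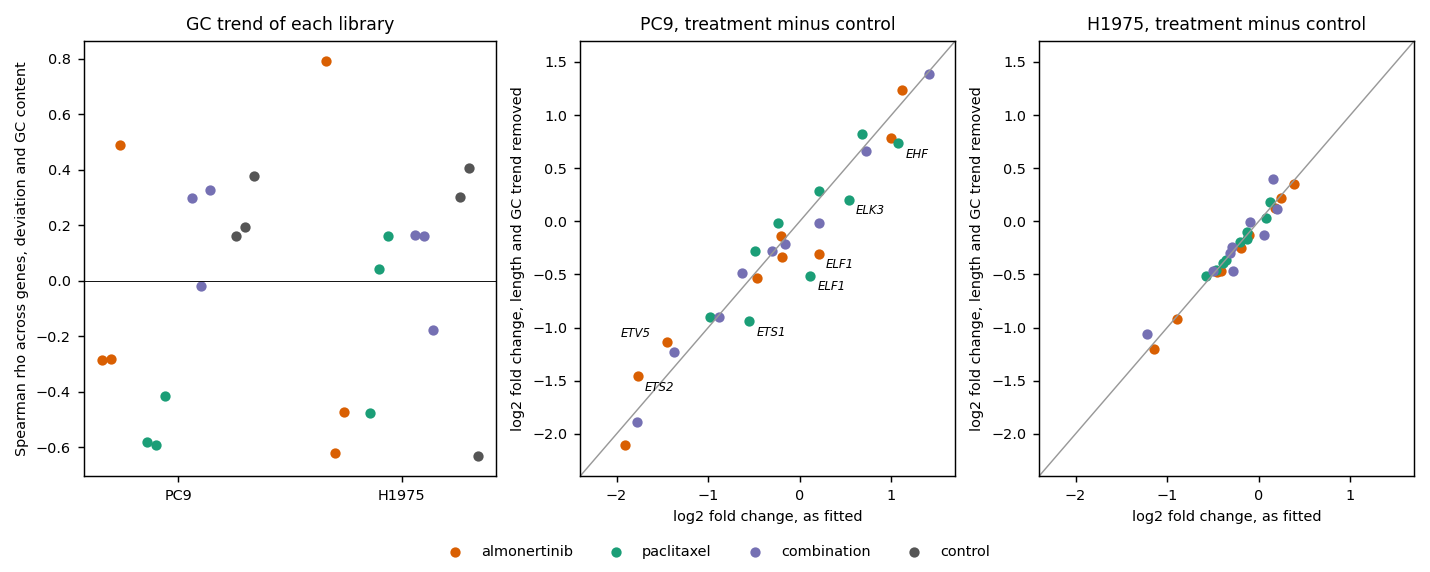
Left, for each library (library 1 to 3 from left to right in each group), the Spearman rho across genes between its deviation from the line mean and transcript GC content; centre and right, log2 changes of the 9 genes against the control as fitted (horizontal) and with the length and GC trend removed (vertical), coloured by treatment. Most points lie near the diagonal; ELF1 under almonertinib and paclitaxel in PC9 lies at -0.30 and -0.51 in place of 0.21 and 0.12, and ELK3 under paclitaxel lies at 0.21 in place of 0.53.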

How the data were processed

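Per the labels' protocols, TRIzol RNA went into a SMART-RNAseq library kit. Reads were aligned to GRCh38 with HISAT2 2.2.1 and counted per gene with HTSeq, per the submitters' processing notes. The HTSeq version, annotation and strand setting are not given in the sources used here. The deposited table holds the authors' raw read counts for 19702 Ensembl genes in 24 libraries.

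Genes were filtered on low counts (filterByExpr) and scaled by TMM, and edgeR 4.0.16 in R 4.3.3 (limma 3.58.1) fitted quasi-likelihood models, with 1 coefficient for each group, to the 12 libraries of each line (12796 genes in PC9, 12345 in H1975) or to all 24 for comparisons of the lines (13380 genes). P-values were adjusted by Benjamini-Hochberg over all genes of a comparison, and called means an adjusted p under 0.05. Intervals use the t quantile at each gene's total degrees of freedom. CPM values were scaled over all 24 libraries, and CPM per kb used the union exon length of GENCODE v29. A script tested the fit on simulated data. The members and gene lists were chosen with earlier results of these data known. Named list genes are among the called genes of their list with the smallest p in a comparison. Alternatives were other size factors (RLE), no filter, DESeq2 1.42.0, a stricter filter (at least 1 CPM in 3 libraries, mean at least 5 CPM), the library number as a block, removal of a length and GC trend per library (splines with 5 degrees of freedom), 1 fit of all 24 libraries and leaving out each library. Leaving out the 3 H1975 libraries that stood apart, and the block together with the trend removal, were chosen after seeing the data. The block was taken as a pairing where same-numbered libraries deviated together (all 3 correlations over 0.1), which held for PC9 almonertinib and control (0.119, 0.106 and 0.394) and for H1975 combination and control (0.110, 0.169 and 0.345). No library was a copy of another.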

Additional observations from a re-analysis of the deposited data

Results flagged for a closer look

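The 11 differences of treatment effect between the lines that passed the test are given here as the PC9 change minus the H1975 change on the log2 scale (edgeR, all 24 libraries), and the doses of the single drugs differed between the lines. Under almonertinib the difference was -1.69 for ETS2 (changes of -1.77 in PC9 and -0.10 in H1975), -1.47 for ETS1 (-1.91 and -0.46) and 0.71 for ELF3 (1.12 and 0.39). The ELF3 difference was 0.53 and not called without PC9 almonertinib library 3 (adjusted p = 0.121). It was also not called without 6 other single libraries or with RLE size factors. Without the 3 H1975 libraries that stood apart it was 1.08 and called.

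Under paclitaxel the difference was 1.23 for EHF (1.08 in PC9 and -0.13 in H1975), 0.90 for ELK3 (0.53 and -0.35), -0.77 for ETS2 (-0.99 and -0.21) and 0.69 for ETV5 (0.21 and -0.47). EHF was at 0.78 (adjusted p = 0.180) and ELK3 at 0.72 (adjusted p = 0.0716) without H1975 control library 3, which stood apart. EHF also lost its call without H1975 paclitaxel library 2 or 3 or PC9 control library 3 (1.05, 1.17 and 1.15), and ELK3 without H1975 paclitaxel library 2 or PC9 control library 3 (0.84 and 0.80). The ETV5 call was lost in 8 of the 12 fits without 1 library. RLE size factors and DESeq2 each called 3 of the 9 genes for paclitaxel, 2 higher and 1 lower, in place of 4.

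Under the combination the difference was -1.47 for ETS1 (-1.77 in PC9 and -0.31 in H1975), 1.20 for ELF3 (1.41 and 0.20), -1.10 for ETV5 (-1.37 and -0.28) and -0.70 for ETS2 (-0.63 and 0.06). The ETS2 call was lost without PC9 combination library 2 (-0.61, adjusted p = 0.0501). Without the 3 H1975 libraries that stood apart the values were -1.55, 1.29, -1.14 and -0.70, and ETV4 was called as well in all 3 treatments (1.24, 0.48 and 0.53 for almonertinib, paclitaxel and the combination).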

How the results depend on the processing

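Most values kept their side of the threshold. Of the comparisons of results with alternatives, 3619 were the same, 109 gained and 153 lost a call, and 8 changed sign with a call in either fit. Values called in neither fit count as the same whatever their sign. Counts below are genes called, then ETS genes called where that count moved.

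In PC9 a fit of all 24 libraries called 918 genes (1 ETS gene) for combination against almonertinib, where the ETS genes had been 2, and 3734 for combination against paclitaxel, and trend removal called 7 ETS genes for the interaction. In H1975 trend removal called 957 (4) under almonertinib, 418 (1) under paclitaxel, 1631 (2) under the combination, 194 (1) for combination against paclitaxel and 377 (2) for the interaction. The fit of 24 libraries called 536, 245 and 1258 for the treatments, 45 and 775 for combination against almonertinib and paclitaxel, and 340 (1) for the interaction. Without the 3 H1975 libraries the counts were 5630 (6), 1094 (3) and 4328 (3) for the treatments, 4255 (3) and 4087 (4) for combination against each drug and 4077 (4) for the interaction. DESeq2 called 172 under paclitaxel, 699 under the combination, 41 and 481 for combination against almonertinib and paclitaxel, and 248 (1) for the interaction. For combination against paclitaxel, RLE called 56, no filter 54 and the stricter filter 3. The replicate block called 202 under the H1975 combination, and 1521 (3) with trend removal. For differences between lines, trend removal called 3824 (5), 3479 (8) and 4033, and leaving out the 3 libraries 3942 (5), 3783 and 4239, for almonertinib, paclitaxel and the combination.

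Signs changed for ELF1 with the trend removed (PC9 almonertinib -0.30, also with the replicate block; PC9 paclitaxel -0.51; PC9 interaction 0.80; paclitaxel difference between lines -0.53) and for SPRED1 in PC9 paclitaxel (-0.14). Without the 3 H1975 libraries they changed for ETV4 in H1975 combination against almonertinib (0.27) and ELK1 in the almonertinib difference between lines (0.53). The cause was not tested.

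Leaving out 1 library at a time gave ranges of genes called, for almonertinib, paclitaxel, the combination, combination against almonertinib, against paclitaxel and interaction, of 6420 to 8093, 5726 to 6418, 5353 to 5915, 1274 to 4184, 4263 to 5289 and 4910 to 7474 in PC9 and 99 to 906, 33 to 54, 64 to 419, 0 to 1101, 0 to 424 and 29 to 596 in H1975. For line differences the ranges were 1594 to 2878, 1113 to 2975 and 1602 to 2419, and 8552 to 8854 for the controls. ETS genes called ranged, in the same order, from 6 to 8, 5 to 7, 6 to 7, 2 to 4, 6 to 7 and 2 to 4 in PC9, and from 0 to 2, 0 to 0, 0 to 1, 0 to 1, 0 to 0 and 0 to 2 in H1975, and from 2 to 4, 1 to 5 and 3 to 4 for line differences, with 6 throughout for the controls.

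The share of higher genes among those called moved with trend removal to 49.5% in H1975 almonertinib (69.3% in the reported fit), 44.3% in paclitaxel (69.6%), 46.0% in the combination (71.7%), 61.0% in the interaction (38.6%) and 49.9% and 46.9% in the almonertinib and paclitaxel differences between lines (33.4% and 57.9%). With DESeq2 it was 56.4% in H1975 paclitaxel, 67.7% in the H1975 interaction and 46.8% in the paclitaxel difference, and with RLE 45.9% in that difference. The median of all genes shifted by -0.104 under DESeq2 in the paclitaxel difference and by -0.111 with trend removal in the control difference. The replicate block changed no ETS call where the numbers pair the libraries. Elsewhere it called ETV4 (-0.24) and ETV5 (0.21) in PC9 paclitaxel, ELF3 (0.30) in combination against almonertinib, EHF (-0.36) in combination against paclitaxel, and ELF3 (-0.39) and ELK1 (0.40) in the interaction. EHF has no value under the stricter filter in H1975. At 98 to 141 counts per H1975 group, depth limits EHF there.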
